A study of Mus musculus with 8 samples.

Results

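In the hippocampus of 18-month-old mice, 880 regions carried a 5-hydroxymethylcytosine (5hmC) peak in both samples from an enriched environment and in neither sample from standard housing. They were chosen by that rule from 156744 regions, made by merging the peaks of 8 samples wherever they overlapped by at least 1 bp, after keeping chromosomes 1 to 19 and widths below 5000 bp. These limits left 156254 regions, of which the 880 are 0.563%. They are called aged enriched-only regions here. The choice rests on the aged peak calls themselves, so that contrast is a description and was not tested.

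5hmC is made when TET enzymes oxidise 5-methylcytosine, the methyl mark that DNA methyltransferases place on cytosine. It is a step on one route by which methylation is removed, and it also persists as a mark of its own. Neurons carry more of it than most cells, it lies mainly in the bodies of active genes and at enhancers, and in the brain it builds up as neurons mature. The hippocampus is a region needed for forming memories, and an enriched environment is a housing condition long used to study how experience acts on it.

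All animals were C57BL/6 mice, with 2 samples in each of 4 groups. Young mice (6 weeks) and aged mice (18 months) either stayed in standard cages (young control and aged control) or had 4 weeks of 5 h daily in a roomier chamber holding toys, tunnels and a wheel for running (young enriched and aged enriched). Nothing in the labels ties the samples to individual or pooled mice, so the spread of a group may be technical. DNA came from whole hippocampal tissue, so a change in the share of a cell type and a change in 5hmC per cell cannot be told apart. A genomic 5hmC assay has no defining markers against which the tissue label could be checked.

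The 5hmC-carrying fragments had been labelled with a modified glucose and biotin, captured and sequenced, with peak calling done sample by sample. Read numbers were not known here, so depth is unknown and only list length shows how much each sample yielded. The aged enriched lists were the 2 shortest (25548 and 30832 peaks), against 38000 and 59260 in aged control and 43709 to 78980 in young samples. Aged enriched replicate 2 stood apart, its peaks being narrower (median 430 bp, against 650 to 952 bp elsewhere) and mostly of high score (72.4% at 100 or above, against 9.92% to 31.9% elsewhere). Scores are the authors' own peak values, a higher one meaning a smaller p-value of the caller. Ranks were taken only within a list, while cuts at a fixed score were applied alike to lists whose scores differ. A rank is given as a percent of the list from its highest score, so a low rank is a strong peak.

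The aged enriched-only regions were a small part of what the 2 aged enriched lists held. Among the 156254 regions, 24119 had a peak in aged enriched replicate 1, 29164 in replicate 2 and 4873 in both, which is 20.2% and 16.7% of the regions of each list. Of those 4873, 3993 also had a peak in at least 1 aged control sample (aged shared regions) and the other 880 (18.1%) did not. The opposite pattern, a peak in both aged control samples and no aged enriched one, held for 8755 regions (aged control-only regions, 5.60% of all). The control lists were the longer ones in the aged mice, and with all 8 lists kept to the length of the shortest there were 1301 aged enriched-only regions (1.44% of the regions then formed) in place of 880. Without aged control replicate 1, the longer of the 2 control lists, the number was 2075, and without an aged enriched sample, when 1 peak is enough, it was 16854 (replicate 1 left out) or 10588 (replicate 2 left out).

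The peaks of the 2 aged enriched samples mostly covered the same bases. In 778 of the 880 regions (88.4%) they overlapped each other directly, over a median of 400 bp, and in 694 (78.9%) over at least 50% of the shorter peak. The centres of the pair with the largest overlap, or else the smallest gap, lay a median of 134 bp apart over all 880. In the other 102 regions (11.6%) the 2 peaks did not touch, with a median gap of 215 bp, and were joined only because young peaks spanned them. Direct overlap was found in 79.3% of the aged shared regions. Merged widths ran from 416 to 4204 bp with a median of 1057 bp, against 1337 bp in aged control-only, 1983 bp in aged shared and 890 bp in all regions. Width depends on how many lists contribute a peak, and aged enriched-only regions had peaks in a median of 4 lists, aged shared regions in 7.

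Aged enriched-only regions ranked near the middle of the aged enriched lists and were weaker there than the shared ones. Their best peaks had a median rank of 54.4% in replicate 1 and 45.7% in replicate 2, where aged shared regions had 32.3% and 37.6%. The median score was 59.5 in replicate 1, where 272 regions (30.9%) scored below 55 and the list began at 50.0. Over all regions with a peak in replicate 1 the median was 61.0, and 27.7% scored below 55. In replicate 2 the median was 119, and 5 regions (0.568%) scored below 55, against 117 and 0.744% over all regions with a peak there. The strongest 10% of each list held 55 of the regions (6.25%) in replicate 1 and 108 (12.3%) in replicate 2. Over all regions with a peak in the list these shares were 9.68% and 10.2%. Ranks in the 2 samples were unrelated across the 880 regions (Spearman's rho -0.016, a description across regions that share 2 libraries), and in the aged shared regions rho was 0.064. A region's rank in one aged enriched sample thus said little about its rank in the other, as the plot of ranks shows.

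**Figure D1:**
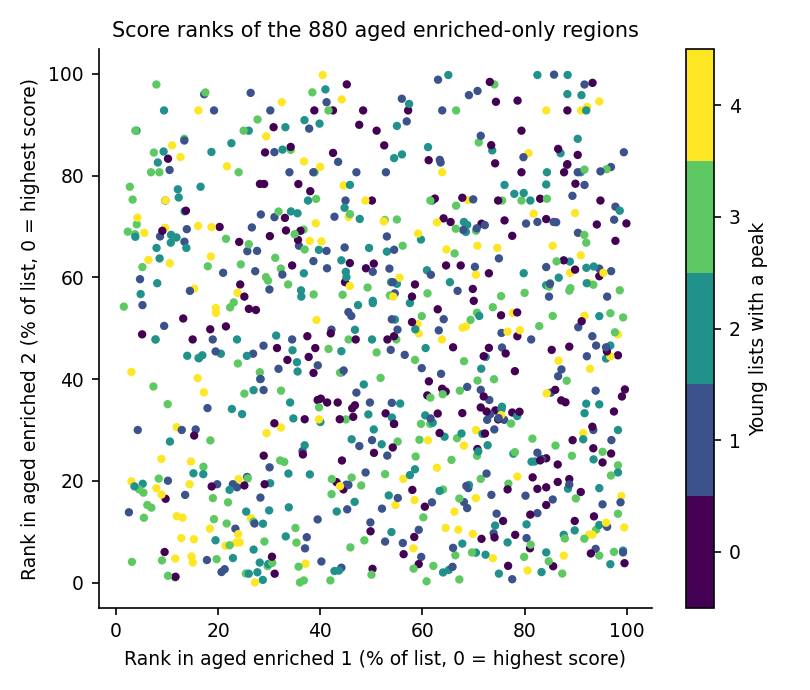
Each point is 1 of the 880 aged enriched-only regions, placed by the rank of its best peak in aged enriched replicate 1 (x axis, percent of the list) and replicate 2 (y axis), and coloured by how many of the 4 young lists had a peak there. Points fill the whole square with no diagonal trend (rho -0.016), and the lower left corner, where both peaks are strong, is thinly filled.

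The regions strongest in both samples were ordered by the worse of their 2 ranks. First was chr4:150622538-150624005 (mm9, 1468 bp), whose scores were 134 and 216 in aged enriched replicates 1 and 2. In young samples it scored 76.9 in enriched replicate 2 and 68.7 and 100.5 in the controls, and young enriched replicate 1 had no peak. This region had the worse rank of 4.11%, and the next in order had 8.98%, so few regions were among the strongest peaks of both samples.

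Second came chr13:43245171-43246232, with aged enriched scores of 103 and 213 and young scores of 52.1 (enriched replicate 2), 59.5 and 56.7 (control replicates 1 and 2). Each of these young scores was below the median of its list over all regions (72.9, 70.8 and 78.6). The third, chr10:127760326-127761150, scored 101 and 199 and had no young peak at all.

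The next pair had peaks in the same 3 young samples. At chr9:42549603-42550839 the aged enriched scores were 99.3 and 267, and the young scores were 178 and 104 in the enriched samples, 71.1 in control replicate 2 and no peak in control replicate 1. At chr1:13158024-13158952 they were 95.8 and 282 in the aged enriched samples, then 97.5, 50.4 and 72.2 in those young samples. In both regions young control replicate 1, the shortest young list, was the young sample without a peak.

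The rest of the first 10 were chr15:85218610-85221112, chr2:134637861-134638570, chr17:50230044-50232039, chr17:67594539-67596421 and chr16:23521179-23522701. Of these 10 regions, those on chromosomes 10 and 2 had no young peak, the other 8 had peaks in 3 or 4 young samples. At the far end of the order lay chr13:3641040-3641721, with scores of 50.0 and 102 and no young peak, and chr1:155756784-155757910, with 52.3 and 52.4.

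Most aged enriched-only regions also had a peak in young mice. At least 1 of the 4 young lists had a peak in 689 of the 880 (78.3%, 95% exact Clopper-Pearson interval 75.4% to 81.0%), against 75.4% of all regions. None did in 191 (21.7%; 24.6% of all regions), 1 did in 195, 2 in 189, 3 in 182 and all 4 in 123 (14.0%, interval 11.8% to 16.4%; 9.75% of all regions). The interval covers counting error only, and regions of 1 genome measured in the same libraries are not independent replicates. The share with any young peak was close to that of all regions, which is not a like background. Part of it was fixed by the merging, since the 102 regions joined by young peaks all have one. Among the 778 whose aged enriched peaks overlapped directly, 587 (75.4%, interval 72.3% to 78.4%) had at least 1 young peak, the same share as in all regions, and 101 (13.0%, interval 10.7% to 15.5%) had all 4. The background includes every region seen in a single young list, and 36.8% of all regions had exactly 1 young peak. A region without an aged peak has a young peak by construction, which raises the share over all regions. Where 1 aged enriched peak was enough and no aged control peak was allowed, fewer regions had a young peak. The shares were 38.4% (aged enriched replicate 1 left out) and 45.4% (replicate 2 left out). This difference was not tested.

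Aged regions of other patterns were shared with young mice more often. Among aged control-only regions 86.9% had at least 1 young peak and 26.9% had all 4. Among aged shared regions these were 97.2% and 61.4%. Peaks that did occur in young lists were also of middle rank at the aged enriched-only regions, with medians of 41.5% and 46.1% in young enriched and 47.0% and 42.3% in young control samples. At aged control-only regions they ranked at 28.8% to 35.6%, and at aged shared regions at 11.3% to 17.4%. By these descriptions the aged enriched-only regions were less shared and weaker in young mice than both comparison sets, which differ from them in width and in number of aged peaks.

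**Figure D2:**
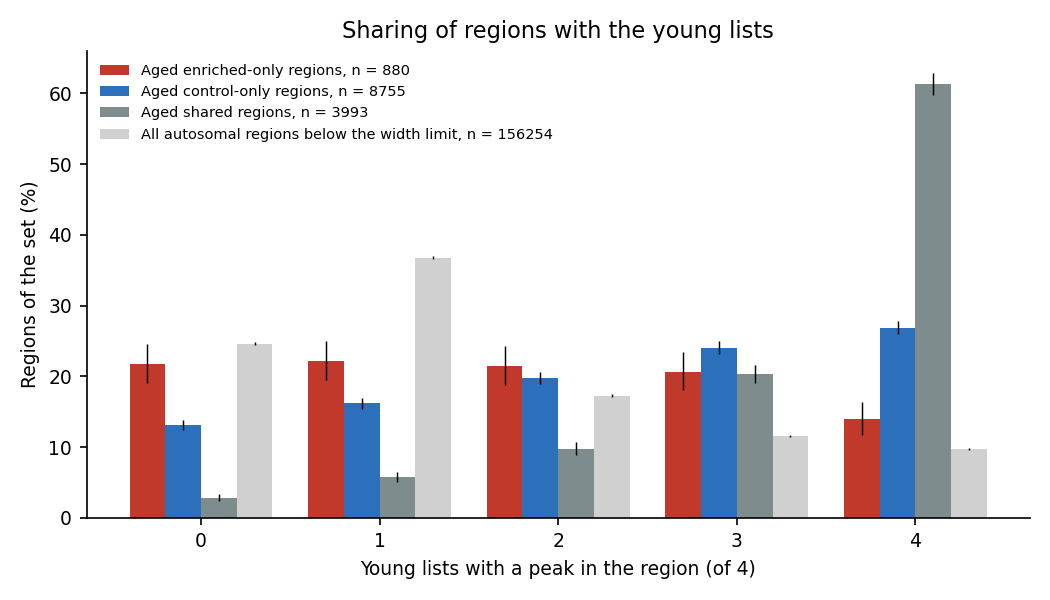
Bars give the percent of regions (y axis) with a peak in 0 to 4 of the young lists (x axis) for the 880 aged enriched-only, 8755 aged control-only, 3993 aged shared and all 156254 regions, and lines are 95% exact intervals for counting error. Aged enriched-only regions are spread almost evenly from 0 to 3 lists (20.7% to 22.2% each), while 61.4% of the aged shared regions sit at 4 lists.

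The number of young lists went with the width of the regions, and with their rank in 1 of the 2 aged enriched samples. Median width was 682 bp with no young peak and 1511 bp with all 4, an increase to which the merged young peaks themselves add. The median rank in aged enriched replicate 1 went from 63.0% with no young peak to 48.8% with all 4, while in replicate 2 it showed no trend, with 46.1% and 49.3% at these ends and 40.1% with 3 young peaks. Of the 778 regions whose aged enriched peaks overlapped directly, 587 had a young peak, and in 575 of them a young peak reached into the bases shared by both aged enriched peaks. How far it reached was not measured.

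The strongest regions with no young peak were seen in the 2 aged enriched lists alone. After chr10:127760326-127761150 came chr2:134637861-134638570, with scores of 95.5 and 275 and the nearest aged control peak 7077 bp away. The next were chr4:123854743-123855712 (101 and 158), chr19:37381398-37382666 (82.7 and 153) and chr15:77010279-77011240 (76.1 and 152). The last of these stood 64291 bp from the nearest aged control peak, and the chromosome 19 region 1650 bp. In all 5 the aged enriched peaks overlapped directly, by 201 to 505 bp.

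The strongest regions with peaks in all 4 young samples had young scores in a wide range. At chr15:85218610-85221112 the aged enriched scores were 95.7 and 209 and the young scores 149 and 215 in enriched and 100.3 and 202 in control samples. At chr17:50230044-50232039 they were 93.1 and 184, then 60.0 and 50.7 in young enriched and 60.1 and 218 in young control samples. At chr16:23521179-23522701 they were 92.6 and 168, then 136 and 96.4, and 79.5 and 193. Only the 2 aged control samples lacked a peak in these regions, although the nearest aged control peak was 541 bp away at the chromosome 17 region and 3007 and 4518 bp away at the other two. The remaining 2 of the leading 5 were chr9:116996658-116997655 and chr15:97551447-97553178.

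Young presence was not a criterion of the rule, although young peaks took part in the merging and joined the aged enriched peaks of 102 regions. The young lists were therefore compared by housing at the same regions. A peak in both young enriched and neither young control sample was found in 22 of the 880 regions (2.50%, exact interval 1.57% to 3.76%), against 2.14% of all regions. The reverse was found in 26 (2.95%, interval 1.94% to 4.30%), against 2.79% of all regions. Both shares lay near their background, in which control-only regions are also the larger class. Among the 778 regions with direct overlap the counts were 18 (2.31%) and 24 (3.08%). With 1 young list left out the shares and their backgrounds moved together. Without young control replicate 1, 33 regions (3.78%; 3.13% of all regions) had young enriched peaks only and 98 (11.2%; 18.5% of all) had young control peaks only. Without young control replicate 2 these were 115 (13.2%; 8.30% of all) and 54 (6.20%; 8.95% of all). Without young enriched replicate 1 they were 65 (7.41%; 11.2% of all) and 61 (6.96%; 5.55% of all), and without replicate 2 they were 71 (8.11%; 10.9% of all) and 67 (7.66%; 5.93% of all). Against background the enriched-only share was thus higher without either control list and lower without either enriched list, and the control-only share the reverse. Peaks were present in 45.5% and 46.8% of the aged enriched-only regions in young enriched replicates 1 and 2, and in 32.5% and 58.3% in young control replicates 1 and 2. The young enriched samples thus lay between the 2 controls, which have the shortest and the longest young list. The means were 46.1% ± 0.964 and 45.4% ± 18.2 (SD, n = 2 each), a log2 ratio of 0.08 (exact two-sided permutation p = 1). With 2 samples against 2 this exact permutation test cannot go below p = 0.333.

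Young lists of equal length gave another order. This setting was chosen after the data were seen. It keeps the 43709 highest-scoring peaks of each young list, the length of the shortest, and leaves the 880 regions as they are. Peaks were then present in 38.6% and 36.9% of the regions in young enriched and in 32.5% and 36.6% in young control samples. Both enriched samples were above both controls, by 0.341 percentage points at the closest, with means of 37.8% ± 1.21 and 34.5% ± 2.89 (SD, n = 2 each). The exact permutation p was 0.333, the smallest possible, so the test cannot separate the groups. A peak in both young enriched and neither control sample was then found in 34 regions (3.86%, exact interval 2.69% to 5.36%; 1.93% of all regions). The reverse was found in 16 (1.82%, interval 1.04% to 2.94%; 2.00% of all regions). Of the 34, 12 were among the 22 found with the lists as deposited, and of the 16, 9 were among the 26. When all 8 lists were kept to the same length, which also gives other aged enriched-only regions (1301), the counts were 44 (3.38%; 1.96% of all regions) and 30 (2.31%; 1.98% of all). With peaks of a score of at least 100 they were 7 (3.52%; 1.16% of all) and 5 (2.51%; 2.37% of all) of 199 regions. That cut keeps 9.92% of the peaks of aged enriched replicate 1 and 72.4% of those of replicate 2. Among the 778 regions with direct overlap, young lists of equal length gave 28 (3.60%) and 13 (1.67%), with peaks in 37.4% and 34.4% of the regions in young enriched and 30.7% and 34.1% in young control samples.

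The comparison sets did not show this order. With young lists of equal length, aged control-only regions had 244 with young enriched peaks only (2.79%) and 302 with young control peaks only (3.45%). Aged shared regions had 58 (1.45%) and 89 (2.23%). Dividing the percent of aged enriched-only regions with a peak by that of all regions, with the lists as deposited, gave 1.32 and 1.31 in young enriched and 1.23 and 1.21 in young control samples (exact permutation p = 0.333, the smallest possible). At aged control-only regions this ratio was 1.63 and 1.64 in young enriched and 1.83 and 1.49 in young control samples. At aged shared regions it was 2.38 and 2.33, then 2.83 and 1.89. In both comparison sets it was highest in the shortest young list and lowest in the longest, so it is not free of list length. The differences between the sets were not tested, since regions are not replicates.

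**Figure D3:**
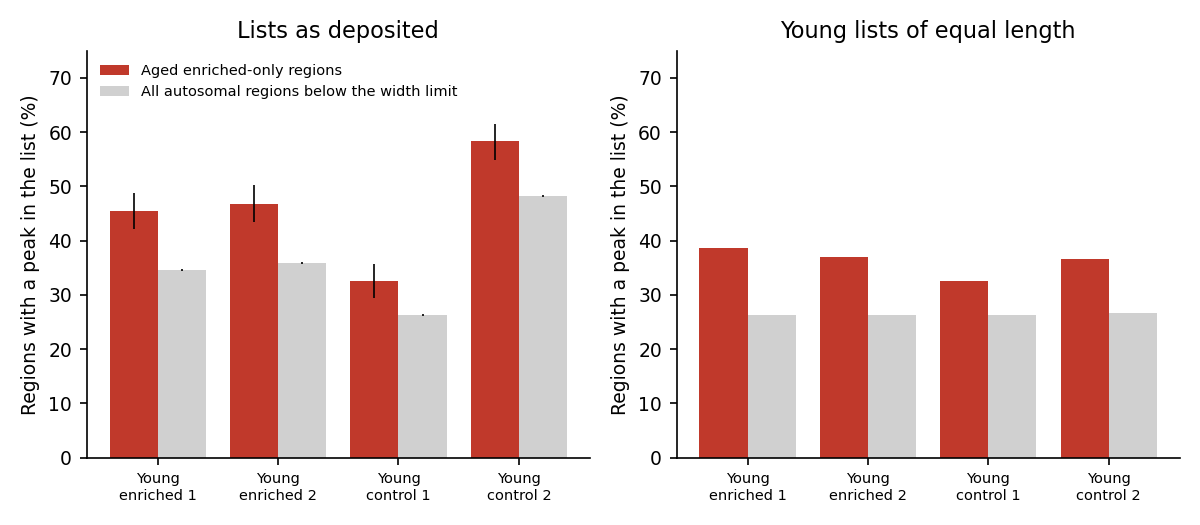
Bars give the percent of regions with a peak (y axis) in each young sample (x axis), for the 880 aged enriched-only regions (red) and all 156254 regions (grey), with the lists as deposited (left, lines are 95% exact intervals) and with young lists of 43709 peaks each (right). On the left young control replicates 1 and 2 are the lowest and the highest (32.5% and 58.3%), and on the right the red bars run from 32.5% to 38.6% while the grey bars are nearly level.

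The regions with peaks in all 4 enriched and none of the 4 control samples (22 with the lists as deposited) were led by 3 on chromosomes 16, 8 and 17. At chr16:90518730-90519890 the scores were 75.7 and 164 in aged enriched and 95.5 and 91.1 in young enriched samples, and the nearest aged control peak was 206 bp away. At chr8:47585897-47586743 they were 73.9 and 247, then 84.6 and 74.7, with an aged control peak only 36 bp away. At chr17:83951899-83953221 they were 67.2 and 138, then 59.4 and 52.5, and aged control peaks began 5539 bp away. The first pair thus have a control peak close by, just outside the merged region. Further regions of this kind were chr2:33772742-33774222, chr8:17369242-17369968, chr10:23943998-23945423, chr10:124826943-124827925, chr6:145908714-145910717, chr2:74681818-74682467 and chr10:93894502-93895840. At chr6:145908714-145910717 and chr10:93894502-93895840 the aged enriched peaks did not touch (gaps of 342 and 262 bp). Only young enriched peaks joined them, so their young pattern was not free of the merging.

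In 26 regions (2.95%) the housing contrast ran in opposite directions at the 2 ages, with the lists as deposited. That is near the 2.79% of all regions with this young pattern, and 9 of the 26 kept it with young lists of equal length. At chr18:46494398-46495645 both aged enriched samples had a peak (130 and 153), as did both young control samples (84.9 and 90.0), and the other 4 samples had none. At chr3:142762390-142763453 the scores were 73.0 and 316 in aged enriched and 67.6 and 73.5 in young control samples, and no aged control peak lay within 303898 bp. At chr3:84104772-84105994 they were 69.8 and 182, then 116 and 53.2. The next were chr8:106900405-106901123 and chr7:56649020-56650043.

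Aged control peaks often lay close to the aged enriched-only regions without touching them. The nearest aged control peak was a median of 3907 bp away, from 6 to 919576 bp, and 194 regions (22.0%) had one within 1000 bp and 483 (54.9%) within 5000 bp. Aged control replicate 1, the longer list, was nearer (median 5534 bp) than replicate 2 (9824 bp). From aged control-only regions the nearest aged enriched peak was a median of 3968 bp away, 17.1% within 1000 bp. These distances are not like measures, since the aged control lists hold more peaks than the aged enriched lists. The distance from all regions was not measured. Of the 397 aged enriched-only regions with no aged control peak within 5000 bp, 74.8% had at least 1 young peak and 12.1% had all 4.

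**Figure D4:**
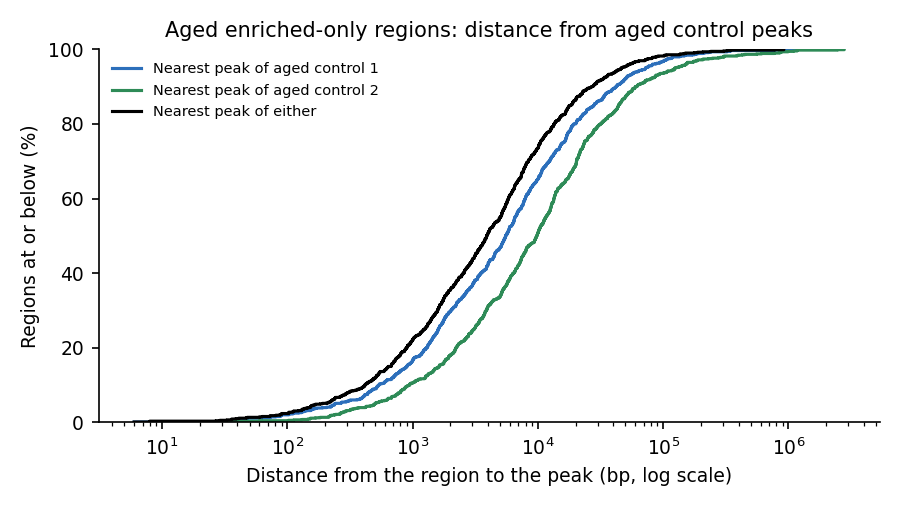
Lines give the percent of the 880 aged enriched-only regions (y axis) whose nearest aged control peak lies at or below a distance (x axis, bp, log scale), for aged control replicate 1, replicate 2 and the nearer of both. The black line passes 22.0% at 1000 bp and 54.9% at 5000 bp, and replicate 1 lies nearer than replicate 2.

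Some regions missed the rule by 1 control peak. Of the aged shared regions, 1580 had a peak in exactly 1 aged control sample, 1213 of them in replicate 1 and 367 in replicate 2, and 152 of these control peaks (9.62%) scored below 55. By list these were 8.57% in replicate 1 and 13.1% in replicate 2, fewer than the 16.2% and 18.1% over all regions of each list, so most of them were not at the limit. The closest to the limit was chr7:81170481-81171429, with aged enriched scores of 66.2 and 145 and a score of 50.1 in aged control replicate 2. At chr12:80747243-80749124 the aged enriched scores were 60.9 and 95.2 and aged control replicate 1 scored 50.1. The width limit removed no region, since none of 5000 bp or more had the aged pattern, and none of the 84 regions on chromosome X had it either. The widest regions inside it were 4204, 3772 and 3191 bp, and in all 3 the aged enriched peaks were 401 to 2425 bp apart and joined by young peaks. Just outside it, chr10:8532443-8537442 (5000 bp) had peaks in all 8 samples.

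The aged enriched-only regions were spread over all 19 autosomes in near proportion to all regions. They made up from 0.477% of the regions of chromosome 17 (exact interval 0.332% to 0.662%) to 0.735% of those of chromosome 3 (0.554% to 0.956%), where the whole genome had 0.563%. The 0.563% lay inside the interval of each of the 19 chromosomes. Chromosome 2 had the most regions (62) and chromosome 19 the fewest (24). Per megabase up to the last peak, chromosome 11 had the highest number (0.477) and chromosome 14 the lowest (0.281).

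**Figure D5:**
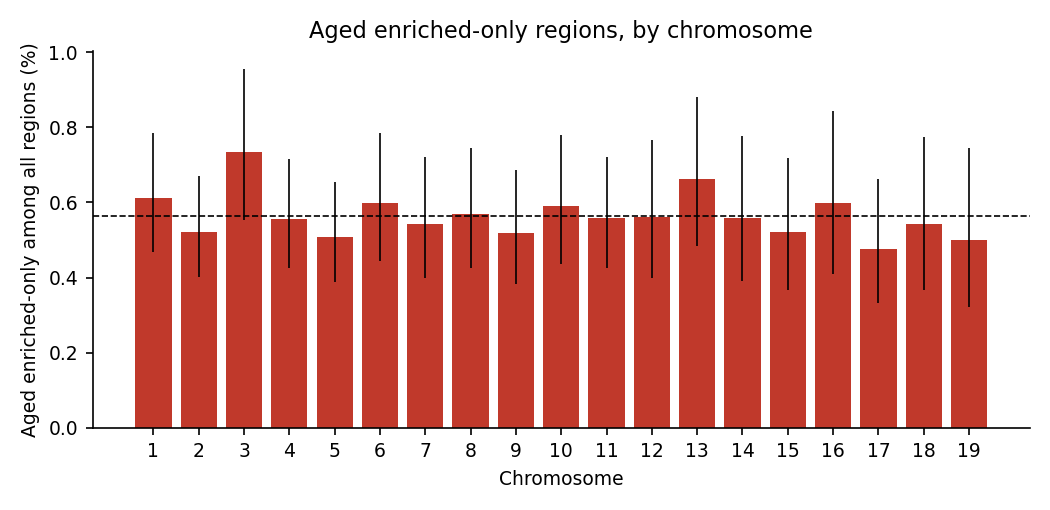
Bars give the aged enriched-only regions as a percent of all regions of each chromosome (y axis), lines are 95% exact intervals for counting error, and the dashed line is the 0.563% of all 19 autosomes. Chromosome 3 is highest (0.735%) and chromosome 17 lowest (0.477%), and the dashed line crosses every interval.

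Few aged enriched-only regions lay within 10000 bp of another, but most had one within 1 Mb. Counted by midpoint in windows of 1 Mb, 437 windows held 1 region, 140 held 2, 37 held 3 and 10 held 4. The nearest other such region was a median of 460764 bp away. Another lay within 10000 bp of 16 regions, within 100000 bp of 165 and within 1 Mb of 610. Spacing was not measured for all regions, so these values have no background. A single window held 5, at 88 to 89 Mb of chromosome 11, and a single one held 7, at 129 to 130 Mb of chromosome 3.

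The chromosome 3 window was not poor in control peaks. It held 25 and 29 peaks in aged enriched and 35 and 20 in aged control lists, and 48, 49, 28 and 70 in young enriched and young control lists. Of its 119 regions, 7 were aged enriched-only, 3 aged control-only and 4 aged shared. Within it, chr3:129692254-129694796 scored 61.8 and 152 in aged enriched, 215 and 144 in young enriched and 235 in young control replicate 2, with an aged control peak 153 bp away. Close by, chr3:129717017-129718067 scored 76.1 and 128 in aged enriched and 103 to 110 in 3 young samples, and chr3:129726466-129728990 scored 97.1 and 87.0 and had peaks in all 4 young samples. These 3 regions and chr3:129698369-129700034 lie within the same stretch of 36737 bp. All 7 regions of the window had a young peak, against 75.4% of all regions. At chr3:129253493-129254912, chr3:129698369-129700034 and chr3:129726466-129728990 this was fixed by the merging. Their aged enriched peaks did not touch (gaps of 224, 64 and 154 bp) and were joined only by young peaks.

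The chromosome 11 window was rich in peaks in every sample. It held 68 and 53 peaks in aged enriched, 122 and 86 in aged control and 87 to 125 in young lists, and 23 of its 219 regions were aged control-only. Its aged enriched-only regions included chr11:88535072-88535795, which had scores of 69.6 and 121 and no young peak. Another, chr11:88496765-88499565, scored 52.1 and 254 in aged enriched and 110 to 155 in 3 young samples.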

How the data were processed

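5hmC-carrying DNA fragments of mouse hippocampus were captured and sequenced in 8 samples, 2 in each of 4 groups of age and housing, grouped by the labels. CASAVA 1.4, Bowtie 0.12.9 and MACS 1.4.2, with the build mm9, come from the submitters' processing notes, without a stated role. The deposited files are 1 peak list per sample, each called alone, with a position and a score per peak. That score is the authors' value as deposited, in the MACS format −10 × log10 of its p-value. Settings of the caller, any background library and read numbers were not known here.

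Peaks overlapping by at least 1 bp were merged, and a region had a peak of a sample where one fell in it. Coordinates are mm9, counted from 1. Ranks are percents of a list by score. Shares carry 95% exact Clopper-Pearson intervals, for counting error only. Young samples were compared by an exact permutation test of 2 against 2. Computation used Python 3.11.15, pandas 2.3.3 and scipy 1.17.1. The merging code was checked on simulated lists in which peaks of a site always overlapped and sites lay far apart. Regions joined only by young peaks, or with a control peak close by, could not occur in them. The regions named are those best placed by the worse of their 2 aged enriched ranks: 10 over all, up to 10 with peaks in every enriched and no control sample, and 5 in each other class, with the fullest windows, the last ranked and the regions at the limits. In the fullest windows, the regions given with values were chosen after their values were seen. The regions and comparisons were chosen with earlier results of these data known. No gene annotation or genome sequence of mm9 was used here, so regions are given by position, and the gene lists and sequence features planned for them were not analysed here.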

Additional observations from a re-analysis of the deposited data

How the results depend on the processing

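Median width moved in 14 of 17 alternatives, the percent with a young peak in 12 of 18 and the percent with all 4 in 9 of 18. The count with young enriched peaks only moved in 11 of 19 and that with young control peaks only in 12 of 19. The number of aged enriched-only regions moved in 5 of 17 and the young log2 ratio in 1 of 21. The log2 ratio, 0.084, counted as moved only after a change of at least 0.422, the pooled SD within young groups. A change of sign or a rise to 0.49 thus counted as unmoved, so 1 of 21 does not show stability. Dropping the width limit added no region, so its values could not move. The cause of the moves was not tested, except that fewer peaks or samples change what counts as a peak in both or in neither. With scores of at least 100, a cut that keeps unequal shares of the lists, there were 199 regions (median width 1356 bp), 71.9% with a young peak. Of these 199, 7 had young enriched peaks only and 5 had young control peaks only. In equally long lists there were 1301 (994 bp), 57.5% with a young peak, 7.23% with all 4 and 44 with young enriched peaks only. With no aged control peak within 5000 bp there were 397 (989 bp), 74.8% with a young peak. Of these 397, 12 (3.02%, against 2.14% of all regions) had young enriched peaks only. Young control peaks only were found in 9 (2.27%, against 2.79% of all regions). With young lists of equal length, an alternative chosen after seeing the data, 67.5% had a young peak, 8.86% all 4, 34 young enriched peaks only and 16 young control peaks only. Among directly overlapping peaks, also chosen later, these were 28 and 13. Median width was 1130 bp with peaks up to 200 bp apart merged, 728 bp with regions from the aged lists only, 998 bp where the aged enriched peaks overlapped directly and 976 bp where they did so by 50% of the shorter.

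Leaving out 1 sample at a time gave 871 to 16854 regions with a median width of 463 to 1258 bp. The percent with a young peak ran from 38.4% to 87.7% and that with a peak in all young lists from 3.47% to 29.3%. Counts with young enriched peaks only ran from 33 (3.78%; 3.13% of all regions) to 240 (1.42%; 2.22% of all) and with young control peaks only from 40 (3.22%; 2.90% of all) to 291 (1.73%; 2.89% of all). The log2 ratio of young enriched to young control ran from −0.34 without young control replicate 1 to 0.49 without young control replicate 2, and was −0.0095 without aged enriched replicate 2 and −0.0073 with scores of at least 100. With the replicate block, pairing young samples by their number, it was 0.084, the same by construction since each group has both numbers. In all, 65 of 129 values under 21 alternatives stayed within the replicate spread, the counting interval or 1.5 times the count. Depth is unknown, so a missing peak can be a region just under the caller's threshold.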
